A study of Mus musculus with 8 samples.

Results

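The globin genes and Alas2, the gene of the erythroid form of the first enzyme of haem synthesis, were followed in RNA from dorsal root ganglia (DRG) of E18.5 mice, a stage close to birth. The 8 genes were taken by symbol from 55414 listed gene IDs, and all 8 were found. They are the adult alpha-globins Hba-a1 and Hba-a2, the embryonic alpha-like globin Hba-x, the adult beta-globins Hbb-bs and Hbb-bt, the embryonic beta-like globins Hbb-y and Hbb-bh1, and Alas2. They are best known from red cells, whereas the labels name neurons and glia, and the question was how much red cell RNA each ganglion library carried, of which developmental type, and whether it went with genotype.

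The study had 2 groups of 4 libraries. AD1 OE embryos were AdvillinCre/+;Rosa26Dach1/+ and Control embryos were Advillin+/+;Rosa26Dach1/+, so both groups carried the Rosa26 allele, which makes Dach1 and EGFP only once Cre has removed a stop cassette. Cre came from the Advillin gene, which is active in postmitotic somatosensory neurons, and the Controls had no Cre. The Rosa26Dach1 line was kept on a mixed C57Bl/6J and CD1 background. Each group was of 4 embryos, and p-values measure the spread between their libraries. Dach1 itself checked the labels, with 95.8 counts per 1000000 (CPM) on average in AD1 OE against 32.6 in Control (log2 fold change 1.56, SE 0.05, adjusted p = 1.77e-08), while Avil, the gene that carries Cre, was lower in AD1 OE (log2 fold change -0.94, SE 0.04, adjusted p = 1.98e-07, both by edgeR's quasi-likelihood test). Total counts ran from 22339059 to 44025625 per library. Sex-linked genes read 3 of the 4 AD1 OE libraries and 1 of the 4 Control libraries as male.

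Haemoglobin is made of a pair of alpha-like and a pair of beta-like globin chains, each holding a haem. Mouse embryos first make red cells in the yolk sac, and these use Hba-x, Hbb-bh1 and Hbb-y among their chains. Red cells are then made in the fetal liver, and those use the adult chains. Young red cells that have lost their nucleus, the reticulocytes, still carry globin and Alas2 mRNA in the circulation, so blood left in the vessels of a dissected tissue brings these transcripts into bulk RNA. In bulk samples, fewer red cells and less RNA in each red cell cannot be told apart.

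The adult genes come in near-identical pairs, and this limits what a split between them can mean. In the GENCODE M21 transcripts the coding sequences of Hba-a1 and Hba-a2 were 99.8% identical, with the single difference C381T (Hba-a1 first, counted from 1 at the A of the start codon). Hbb-bs and Hbb-bt were also 99.8% identical, with the single difference C417T (Hbb-bs first). Neither change alters the encoded chain, so each pair encodes 1 protein. The 60 coding bases around each difference are printed here, coding bases 351 to 410 for the alpha pair and 385 to 444 for the beta pair, with the differing base in capitals.
Hba-a1: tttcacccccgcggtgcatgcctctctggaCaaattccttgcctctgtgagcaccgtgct
Hba-a2: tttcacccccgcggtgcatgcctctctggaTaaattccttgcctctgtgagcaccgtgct
Hbb-bs: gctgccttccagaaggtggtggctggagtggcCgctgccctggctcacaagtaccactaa
Hbb-bt: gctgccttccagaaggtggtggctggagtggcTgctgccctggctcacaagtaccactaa

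Of all stretches of 150 bases in these transcripts, 51.6% in Hba-a1, 34.3% in Hba-a2, 41.3% in Hbb-bs and 49.3% in Hbb-bt occurred in no other gene, and every shared stretch was shared only within the pair. The embryonic genes and Alas2 were 100% unique by this measure. Hbb-y coded for a chain 70.7% identical to that of Hbb-bs, Hbb-bh1 for one 67.3% identical, and Hba-x for one 53.5% identical to that of Hba-a1. The embryonic counts can therefore be read gene by gene, while the split within each adult pair is uncertain, because how reads that fit both genes were counted is not stated.

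Adult globin was present in every library and embryonic globin hardly at all. Per kilobase of transcript, Hbb-bs stood at 397 ± 220 CPM in AD1 OE and 304 ± 70.7 in Control (mean ± SD, n = 4), Hbb-bt at 101 ± 54.2 and 77.6 ± 19.6, Hba-a1 at 97.9 ± 52.8 and 72.3 ± 16.3, and Hba-a2 at 77.8 ± 40.4 and 56.0 ± 14.0. Alas2, the rate-setting enzyme of red cell haem synthesis, stood at 8.44 ± 5.09 and 6.27 ± 1.30 CPM per kilobase. Hbb-y followed at 0.174 ± 0.125 and 0.255 ± 0.130, Hba-x at 0.145 ± 0.0743 and 0.163 ± 0.0870, and Hbb-bh1 at 0 in all AD1 OE libraries and 0.0435 ± 0.0604 in Control. Within single libraries, Hbb-bs exceeded Hbb-bt, Hba-a1 exceeded Hba-a2 and Hba-a2 exceeded Alas2 in 8 of 8 libraries. The order of Hbb-bt over Hba-a1 held in 7 of 8 libraries, with ratios per kilobase of 0.972 to 1.13, and Hbb-y over Hba-x held in 6 of 8, so these neighbours were not separated.

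**Figure D1:**
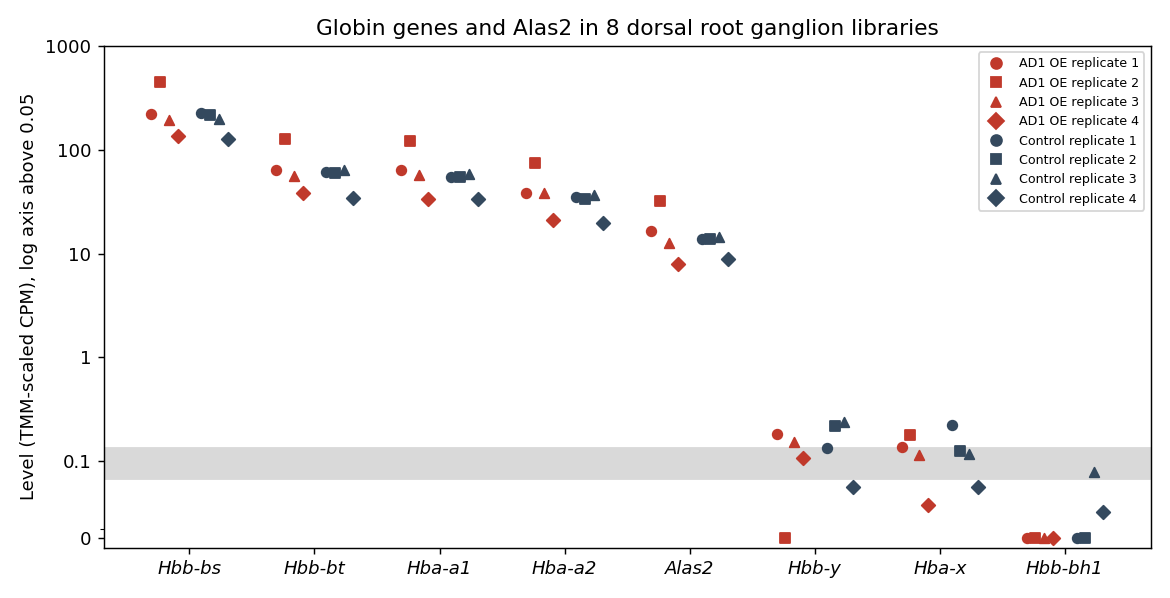
TMM-scaled CPM of each gene in each library on an axis that is logarithmic above 0.05, with AD1 OE in red, Control in blue and 1 symbol shape per replicate number; the grey band spans the level that 3 counts give in each library. The 4 adult globins and Alas2 lie between 7.98 and 450 CPM, AD1 OE replicate 2 is highest for each of them, and the 3 embryonic genes lie in or near the grey band.

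The embryonic genes were counted in single reads. Hbb-y, the main beta-like chain of late primitive red cells, had 8, 0, 4 and 3 counts in AD1 OE replicates 1 to 4 and 3, 7, 6 and 2 in the Control replicates. Hba-x, an alpha-like chain of the same cells, had 6, 4, 3 and 1 counts in AD1 OE and 5, 4, 3 and 2 in Control. Hbb-bh1, the chain of the earliest yolk sac cells, was at 0 in all libraries but Control replicates 3 and 4, with 2 counts and 1 count. The groups overlapped for each of the 3 genes, and most values were within a few counts of the limit of 3 counts, which corresponded to 0.0677 to 0.135 CPM.

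As a share of all beta-globin counts, the embryonic pair Hbb-y and Hbb-bh1 made up 36 of 64452 counts over the 8 libraries, or 0.0559% (95% Wilson interval 0.0404 to 0.0773%). Hba-x made up 28 of 22060 alpha-globin counts, or 0.127% (0.0878 to 0.183%). By library the beta share was 0.0634, 0, 0.0613 and 0.0624% in AD1 OE and 0.0472, 0.0789, 0.120 and 0.0526% in Control. The 0 in AD1 OE replicate 2 came from 12923 beta-globin counts, which allows a share of up to 0.0232% by the limit of 3 counts and 0.0297% by the 95% Wilson interval. It is the library with the most adult globin. Mean shares were 0.0468 ± 0.0312% in AD1 OE and 0.0747 ± 0.0333% in Control (exact permutation test, two-sided, p = 0.314, n = 4 and 4). For the alpha share they were 0.103 ± 0.0299% and 0.155 ± 0.0648% (exact permutation test, two-sided, p = 0.171). Both shares were lower on average in AD1 OE and both overlapped between groups, with under 10 counts behind each library value. Intervals cover counting error only and treat each read as an independent count. The methods name no molecular identifiers, so copies of the same molecule may have been counted more than once.

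Over all 8 genes the libraries ranged from 223 to 802 CPM, or 0.0221 to 0.0806% of all counts, and the ranges of the genotypes overlapped. The summed level was 403, 802, 357 and 235 CPM in AD1 OE replicates 1 to 4 and 389, 378, 371 and 223 CPM in the Control replicates. AD1 OE replicate 2 stood at 2.16 times the median of the other 7 libraries, AD1 OE replicate 4 and Control replicate 4 were the lowest, and the remaining 5 libraries lay within 357 to 403 CPM. On the log2 scale the groups differed by 0.29 (means 8.66 ± 0.73 and 8.38 ± 0.38; exact permutation test, two-sided, p = 0.514). Without AD1 OE replicate 2 the difference was -0.04 and changed direction, with 332 ± 86.9 CPM in the 3 remaining AD1 OE libraries against 340 ± 78.6 in Control.

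No single gene was called either. Of the 8 genes 5 passed the expression filter. Of these 5, 0 passed the thresholds (adjusted p under 0.005, log2 fold change beyond 0.25 either way), against 455 of 17721 tested genes (2.57%). In this fit 0 had an unadjusted p under 0.05. The p-values depended on the filter. In an edgeR fit without it all 5 had an unadjusted p under 0.05 (0.003 to 0.016, quasi-likelihood test), and 0 were called (adjusted p 0.072 to 0.214). The SEs there were 0.15 to 0.17, beside 0.30 to 0.33 in the main fit. None of the 5 had groups that did not overlap, a pattern found in 13.0% of tested genes. DESeq2 and limma-voom also called 0. The median log2 fold change of the 5 was 0.42, beside 0.00 over all tested genes.

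Hbb-bs, the most abundant transcript, measured 220, 450, 194 and 135 CPM in AD1 OE and 224, 216, 197 and 127 CPM in Control. The log2 fold change was 0.38 (SE 0.30, adjusted p = 0.552) in the edgeR fit and -0.06 (SE 0.20) without AD1 OE replicate 2. Only that 1 AD1 OE library exceeded the highest Control.

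Hbb-bt, its partner in the locus, measured 64.3, 126, 55.4 and 38.0 CPM in AD1 OE and 61.0, 59.6, 63.6 and 34.0 CPM in Control. Its log2 fold change was 0.37 (SE 0.30, edgeR adjusted p = 0.568), and -0.04 without AD1 OE replicate 2. The 3 higher Controls and AD1 OE replicate 1 lay close together.

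Among the alpha genes, Hba-a1 measured 63.2, 120, 56.7 and 33.4 CPM in AD1 OE and 54.7, 55.0, 58.9 and 33.7 CPM in Control, with a log2 fold change of 0.43 (SE 0.30, edgeR adjusted p = 0.499). Hba-a2 measured 38.6, 74.2, 38.6 and 20.95 CPM against 35.1, 33.2, 36.2 and 19.6 CPM, with a log2 fold change of 0.47 (SE 0.31, edgeR adjusted p = 0.457). AD1 OE replicates 1 and 2 exceeded every Control for both genes, as did AD1 OE replicate 3 for Hba-a2, while AD1 OE replicate 4 lay beside the lowest Control. Without AD1 OE replicate 2 the values were 0.03 for Hba-a1 and 0.09 for Hba-a2.

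Alas2 measured 16.3, 31.9, 12.6 and 7.98 CPM in AD1 OE and 13.9, 13.9, 14.5 and 8.83 CPM in Control. The log2 fold change was 0.42 (SE 0.33, edgeR adjusted p = 0.546), and -0.03 without AD1 OE replicate 2. Alas2 lies on the X chromosome, and with sex as a second term its log2 fold change was 0.45 (adjusted p = 0.681). The order of the libraries was nearly that of the globins.

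The 3 embryonic genes did not pass the filter. In an edgeR fit without the filter their adjusted p-values were 0.992 for Hba-x, 0.835 for Hbb-y and 0.490 for Hbb-bh1. For Hbb-bh1, where both groups lay at or under 3 counts per library, no fold is given.

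**Figure D2:**
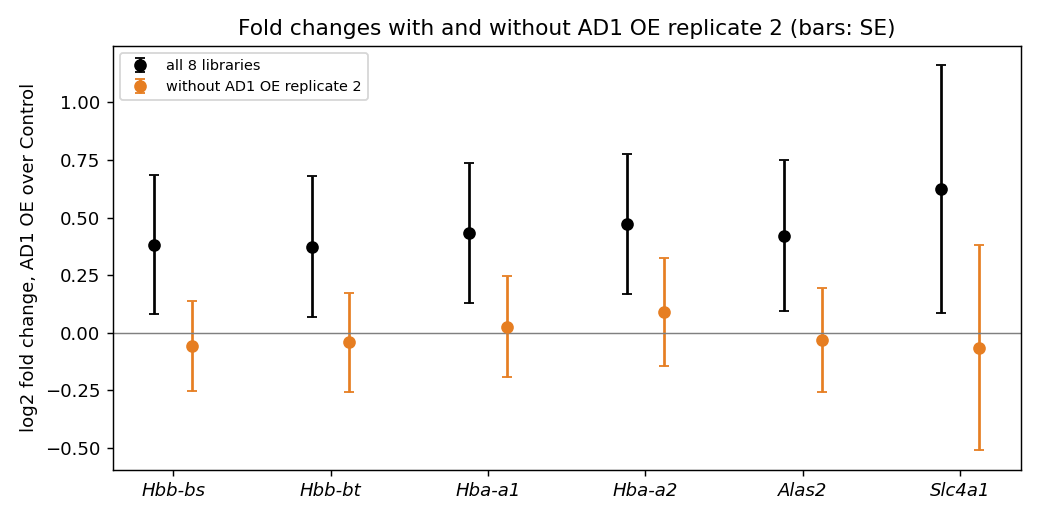
Log2 fold change of AD1 OE over Control from edgeR for the 4 adult globins, Alas2 and the red cell anion exchanger Slc4a1, with all 8 libraries in black and without AD1 OE replicate 2 in orange; bars are 1 SE. All 6 black points lie between 0.37 and 0.62, and all 6 orange points lie between -0.07 and 0.09.

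The spread between libraries of the same group was wide for these genes. The within-group SD of log2 CPM was 0.58 to 0.63 for the 5 tested genes, beside a median of 0.09 over the 15517 tested genes that averaged 1 CPM or more, which placed the 5 between the 98.9th and the 99.0th percentile. The SDs were 0.72 to 0.83 in AD1 OE and 0.34 to 0.43 in Control. The 5 genes varied together. Over the 8 libraries the Pearson correlation of log2 CPM lay between 0.97 and 0.99 for the 10 pairs, a description over libraries that share their RNA and their depth.

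Within a library the proportions of the globin transcripts were far steadier than their sum. Alpha-globin counts were 0.358, 0.339, 0.383 and 0.315 of the beta-globin counts in AD1 OE and 0.315, 0.320, 0.365 and 0.332 in Control, while the summed level varied over 3-fold. The groups overlapped, with a log2 difference of 0.07 (exact permutation test, two-sided, p = 0.429). Per kilobase of transcript the ratio was 0.319 to 0.389. Alpha lay below beta in all libraries, and since the 2 pairs differ in how much of their sequence is unique, the part of the counting in this ratio was not tested.

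Alas2 kept step with the globins. There were 42.3, 41.4, 36.5 and 35.1 Alas2 counts per 1000 globin counts in AD1 OE and 37.0, 38.1, 40.7 and 41.2 in Control. The means were 38.8 ± 3.53 and 39.3 ± 2.05, with a log2 difference of the ratio of -0.02 (exact permutation test, two-sided, p = 0.771, n = 4 and 4). AD1 OE replicate 2, the library with the most globin, and Control replicate 4, that with the least, had nearly the same ratio.

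Hba-a2 took 37.9, 38.2, 40.5 and 38.6% of adult alpha-globin counts in AD1 OE and 39.1, 37.7, 38.1 and 36.7% in Control (difference 0.896 percentage points, exact permutation test, two-sided, p = 0.343). The 8 shares lay close together and overlapped between groups.

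Hbb-bt took 22.6, 21.8, 22.2 and 22.0% of adult beta-globin counts in AD1 OE and 21.4, 21.6, 24.4 and 21.1% in Control. Control replicate 3 stood above all other libraries, and its 95% Wilson interval, 23.34 to 25.40%, did not meet the interval of any other library, the nearest being 21.86 to 23.32% in AD1 OE replicate 1. Over the 4 Control libraries the scatter was 8.64 times that of counting alone (chi-square per degree of freedom), beside 0.720 in AD1 OE. The group means were 22.2 ± 0.323% and 22.1 ± 1.504% (difference 0.0431 percentage points, exact permutation test, two-sided, p = 1.0). Without Control replicate 3 the difference was 0.789 percentage points (exact permutation test, p = 0.0286, which is the smallest p this design allows), so the comparison rests on that 1 library. The Hba-a2 share in Control replicate 3 was 38.1%, within the range of the others. The 7 within-library and summed values tested had adjusted p-values of 0.72 to 1.0 (Benjamini-Hochberg over exact permutation tests).

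**Figure D3:**
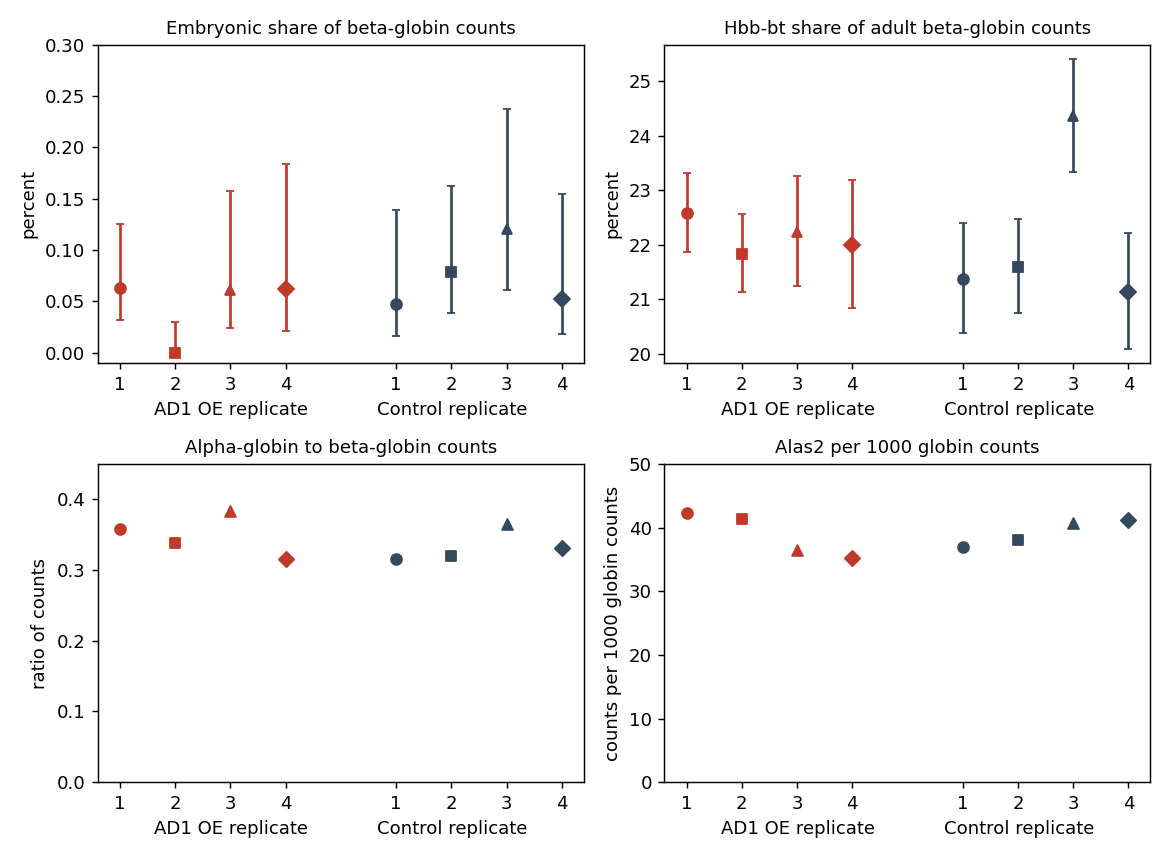
Within-library proportions by replicate, AD1 OE in red and Control in blue: the embryonic share of beta-globin counts and the Hbb-bt share of adult beta-globin counts, both in percent with 95% Wilson intervals, the ratio of alpha-globin to beta-globin counts, and Alas2 counts per 1000 globin counts. The Hbb-bt panel does not start at 0; Control replicate 3 lies at 24.4% there and the other 7 libraries at 21.1 to 22.6%.

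The promoters of 5 of the 8 genes are shown to set adult beside embryonic genes. Each is the 120 bases just before the RefSeq start site on GRCm38.p6, in the direction of transcription. The counts were made on GRCm39, and these coordinates hold only for GRCm38.p6. RefSeq's table had a window for 7 of the 8 genes and none for Hbb-bh1. The letters searched on both strands, shown in capitals, were CCAAT, the CACCC-type box CCNCNCCC, the GATA-type words TGATAA and, in a second spelling, AGATAA, and the TATA-type word ATAAA.
Hba-a1 chr11:32283552-32283671 (+): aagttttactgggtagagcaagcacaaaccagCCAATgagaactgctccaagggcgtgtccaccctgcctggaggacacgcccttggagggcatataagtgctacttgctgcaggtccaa
Hba-x chr11:32276480-32276599 (+): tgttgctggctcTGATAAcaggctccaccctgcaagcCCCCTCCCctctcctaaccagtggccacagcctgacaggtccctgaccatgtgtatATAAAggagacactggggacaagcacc
Hbb-bs chr7:103827929-103828048 (-): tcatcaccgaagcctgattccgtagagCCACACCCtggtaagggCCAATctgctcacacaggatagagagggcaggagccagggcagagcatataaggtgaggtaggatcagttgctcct
Hbb-y chr7:103853208-103853327 (-): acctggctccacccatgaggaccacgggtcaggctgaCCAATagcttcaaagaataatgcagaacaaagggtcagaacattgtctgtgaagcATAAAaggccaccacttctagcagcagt
Alas2 chrX:150547297-150547416 (+): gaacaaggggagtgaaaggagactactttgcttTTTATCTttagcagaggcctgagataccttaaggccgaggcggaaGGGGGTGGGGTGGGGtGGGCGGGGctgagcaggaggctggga

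CCAAT was in 5 of the 7 windows (Hba-a1, Hba-a2, Hbb-bs, Hbb-bt and Hbb-y), beside 21.2% of 32446 promoter windows of the same length. CCNCNCCC was in 4 (Hba-x, Hbb-bs, Hbb-bt and Alas2), beside 34.8%, and ATAAA was in 4 (Hba-x, Hbb-bt, Hbb-y and Alas2), beside 20.2%. TGATAA was only in the window of Hba-x, beside 3.41% of all windows, and AGATAA only in that of Alas2, beside 4.40%; in Alas2 it overlaps the ATAAA match. Each of CCAAT, the CACCC-type box and ATAAA was found in adult as well as embryonic globin genes. The windows of Hba-a1 and Hba-a2 were 95.1% identical and those of Hbb-bs and Hbb-bt 72.7%. A match is a description of letters and not a site, and a window without a match may hold a like word in another spelling. In lower case, the letters tataa are in the printed windows of Hba-a1 and Hbb-bs, and caccc in those of Hba-a1, Hba-x and Hbb-y. These spellings were not searched.

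Slc4a1, the red cell anion exchanger (band 3), was at a low level and was highest in the library with the most globin. It measured 3.41, 7.16, 0.993 and 1.15 CPM in AD1 OE and 1.89, 2.86, 2.43 and 0.987 CPM in Control. Its log2 fold change was 0.62 (SE 0.54, edgeR adjusted p = 0.595), and -0.07 without AD1 OE replicate 2. Unlike Alas2, it did not keep a fixed proportion to globin. There were 8.81, 9.31, 2.88 and 5.07 Slc4a1 counts per 1000 globin counts in AD1 OE and 5.03, 7.85, 6.83 and 4.61 in Control. The exact Poisson 95% intervals, which cover counting error in Slc4a1 only, were 7.46 to 10.3 in AD1 OE replicate 1 and 1.88 to 4.22 in AD1 OE replicate 3. Slc4a1 relative to globin thus differed over 3-fold between libraries of 1 genotype.

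The list of 16 genes of the red cell membrane and cytoplasm had 15 found and 8 tested. None was called in either direction, 1 had an unadjusted p under 0.05, and the median log2 fold change was 0.14, beside 0.00 over all tested genes. Most of the list's sum came from Tmcc2 (mean 69.2 CPM) and Bpgm (29.0 CPM), the enzyme of 2,3-bisphosphoglycerate synthesis. Tspan33 averaged 2.43 CPM and Slc4a1 2.61 CPM. Tspan33 was the gene with an unadjusted p under 0.05. It measured 2.17, 2.18, 1.57 and 2.23 CPM in AD1 OE and 2.97, 2.30, 2.67 and 3.33 CPM in Control, lower in AD1 OE (edgeR adjusted p = 0.130). The groups did not overlap, a pattern found in 13.0% of tested genes. Tspan33 was singled out after its values were seen. The 12 genes other than Tmcc2, Bpgm and Tspan33 together measured 7.59, 15.7, 3.02 and 2.80 CPM in AD1 OE and 4.54, 7.498, 7.26 and 3.13 CPM in Control. This grouping was made after the values were seen. It kept Slc4a1, which averaged more than Tspan33 and gave 7.16 of the 15.7 CPM in AD1 OE replicate 2. Among these 12, Kel, a blood group antigen, had 26, 24, 0 and 2 counts in AD1 OE and 2, 9, 6 and 4 in Control.

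Car1, the carbonic anhydrase of red cells, had 2, 3, 0 and 1 counts in AD1 OE and 2, 29, 35 and 8 in Control, so that 2 Control libraries held most of its counts and their globin levels were no higher than those of Control replicate 1. Car1 did not pass the filter. DESeq2 called it lower in AD1 OE (log2 fold change -3.66, SE 0.92, adjusted p = 0.00183), as did edgeR without the filter (log2 fold change -3.58, adjusted p = 2.3e-05), and the groups overlapped. The share of all genes called in these fits was not counted, and the edgeR fit without the filter also gave the globins smaller SEs than the main fit. Car1 stayed a gene of few counts. Car1 was singled out after its values were seen.

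Further genes of haem varied less over libraries than the globins did, and none was called. Of 8 haem synthesis genes all 8 were tested and 0 called, with a median log2 fold change of -0.05 and summed levels of 268 to 278 CPM in AD1 OE and 275 to 282 CPM in Control. The most abundant were Fech (50.8 CPM), which inserts the iron, Alas1 (48.6 CPM), the housekeeping form of the first enzyme, Urod (43.0 CPM) and Ppox (36.4 CPM). Alas1 ran from 44.8 to 54.4 CPM over the 8 libraries and was lowest in AD1 OE replicate 2, where Alas2 was highest. Of 8 genes of haem transport and iron supply, 8 were tested and 0 called (median -0.07), with Tfrc, the transferrin receptor, at 152 CPM and Tmem14c at 61.3 CPM. Of 4 haem breakdown genes 0 were called (median -0.07). Hmox1, the inducible haem oxygenase, measured 13.3 to 16.7 CPM in AD1 OE and 17.0 to 18.0 CPM in Control (edgeR adjusted p = 0.227). Uros of the synthesis list (edgeR adjusted p = 0.146) and Steap3 of the transport list (edgeR adjusted p = 0.246) were also lower in AD1 OE. For Hmox1, Uros and Steap3 the groups did not overlap, a pattern found in 13.0% of tested genes.

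Some factors that define the red lineage were near the limit of detection. Of the 8 listed genes, 7 red cell transcription factors and Epor, the erythropoietin receptor, 5 were tested and 0 called (median -0.04). Klf1, the factor that drives adult beta-globin, measured 0.0785 to 0.757 CPM and was highest in AD1 OE replicate 2. Gata1, the master factor of the lineage, measured 0.0359 to 0.187 CPM. Tal1, another factor of early blood cells, lay higher at 1.99 to 3.30 CPM. Lmo2 (10.99 CPM) and Zfpm1 (4.65 CPM), which other cells also use, led the list. Of 7 regulators of globin switching all 7 were tested and 0 called (median 0.07). Among them were Zbtb7a (43.5 CPM), Lin28b (24.5 CPM) and Bcl11a (16.2 CPM), and these genes are expressed outside the red lineage as well. An unadjusted p under 0.05 was found for 2 of the 7. Myb was higher in AD1 OE (log2 fold change 0.68, edgeR adjusted p = 0.158), with groups that did not overlap, as in 13.0% of tested genes. Sox6 was lower (log2 fold change -0.20, edgeR adjusted p = 0.261).

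Globins of other cells behaved differently. Ngb, neuroglobin, the globin of neurons, measured 4.27, 4.14, 3.52 and 4.78 CPM in AD1 OE and 3.33, 2.71, 2.87 and 3.16 CPM in Control. These groups did not overlap, as in 13.0% of tested genes. Its log2 fold change of 0.47 (SE 0.12, edgeR adjusted p = 0.0415) missed the threshold of 0.005 and passed one of 0.05, which 6.55% of tested genes passed. Its adjusted p was 0.196 with sex as a term and 0.0662 with a replicate block, and it was above 0.05 in 6 of the 8 fits that left out 1 library (0.0201 to 0.129). Cygb, cytoglobin, of fibroblast-like cells, measured 12.5 to 14.4 CPM in AD1 OE and 15.0 to 17.3 CPM in Control (log2 fold change -0.21, SE 0.07, edgeR adjusted p = 0.123). Neither followed the red cell globins over libraries, with AD1 OE replicate 2 at 1.24 times the median of the others for Ngb and 0.957 times for Cygb. Of the 8 other globin genes 3 were tested, and 2 (Hbb-bh0 and Hbb-bh3) were at 0 in all libraries. Over the 6 lists together, 51 of 52 genes were found and 36 tested. Of these 0 were called, beside 2.57% of all tested genes, so few calls would be looked for in lists of this size. An unadjusted p under 0.05 was found for 7, and the share of all tested genes at that limit was not counted.

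Levels of other blood and vessel cells were set beside the summed globin level in 8 relations over the 8 libraries. For the whole list of red cell membrane and cytoplasm genes Pearson's r was 0.75 (exact permutation p = 0.0343, adjusted p = 0.275) and Spearman's rho 0.83 (exact permutation p = 0.0154, adjusted p = 0.123). Without AD1 OE replicate 2 and Control replicate 4, the libraries farthest from the median, r was 0.93 (exact permutation p = 0.0486, adjusted p = 0.389). Tmcc2, Bpgm and Tspan33 made up 86.2 to 97.2% of the list's sum. Taken singly, their r with the summed globin level over all 8 libraries was -0.11, 0.69 and -0.30. For platelet genes r was -0.17 (rho -0.05), for neutrophil genes -0.10 (rho -0.26), for macrophage genes -0.64 (rho -0.33) and for endothelial genes -0.14 (rho 0.05). For fibroblast genes it was -0.10 (rho -0.29), for skeletal muscle genes 0.29 (rho 0.36) and for library size -0.39 (rho -0.31). The exact permutation p-values of these 7 were 0.0813 to 0.806 for r and 0.389 to 0.935 for rho, and no relation passed after Benjamini-Hochberg adjustment (0.275 to 0.806 for r, 0.123 to 0.935 for rho). Platelet genes, 3 of 6 tested and 0 called, summed to 16.2 to 17.9 CPM in AD1 OE and 15.8 to 20.3 CPM in Control. Of the neutrophil genes, S100a8 (5.70 CPM), S100a9, Ltf and Mmp8 were highest in Control replicate 4, the library with the least globin. Ngp (3.34 CPM) and Camp (1.29 CPM) were highest in AD1 OE replicate 2, the library with the most globin. Mpo and Elane were highest in other AD1 OE libraries.

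Genes best known from liver and thymus were also counted in some libraries. Among 15517 tested genes, 57 climbed by at least 0.5 on the log2 scale per log2 unit of the summed globin level. They included the 5 tested members, which are part of that level, and muscle genes such as Acta1 and Myh3 (slopes of 0.60). The steepest were Alb, Ahsg, Afp and Apoa1, secreted proteins of liver cells. Before birth the liver is the main site of red cell formation. These genes were chosen after their values were seen, so no test is given. Alb, the gene of albumin, measured 27.03, 28.4, 0.497 and 0.0719 CPM in AD1 OE and 3.78, 13.9, 13.5 and 0.0846 CPM in Control. The 7 liver genes Alb, Afp, Ahsg, Apoa1, Fga, Fgb and Fgg together measured 53.1, 57.6, 1.68 and 0.791 CPM in AD1 OE and 8.31, 29.0, 29.7 and 1.16 CPM in Control, a range that spans both genotypes. Fgb was at 0 in AD1 OE replicates 3 and 4 and Fga at 0 in Control replicate 4.

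Globin was also plentiful in a library with few counts of liver genes. AD1 OE replicate 3 held 357 CPM of the 8 genes with 1.68 CPM of liver genes, and AD1 OE replicate 1 held 403 CPM with 53.1 CPM. AD1 OE replicates 1 and 2 and Control replicates 2 and 3 ranked highest both for the liver genes and for Slc4a1 per 1000 globin counts. The 6 thymocyte genes Rag1, Cd4, Cd8a, Cd8b1, Ccr9 and Themis measured 29.4, 14.0, 1.72 and 1.62 CPM in AD1 OE and 2.97, 2.08, 3.18 and 2.48 CPM in Control, with Cd8a at 0 in AD1 OE replicate 3 and in Control replicates 2, 3 and 4. The part of these transcripts in the globin levels was not tested.

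**Figure D4:**
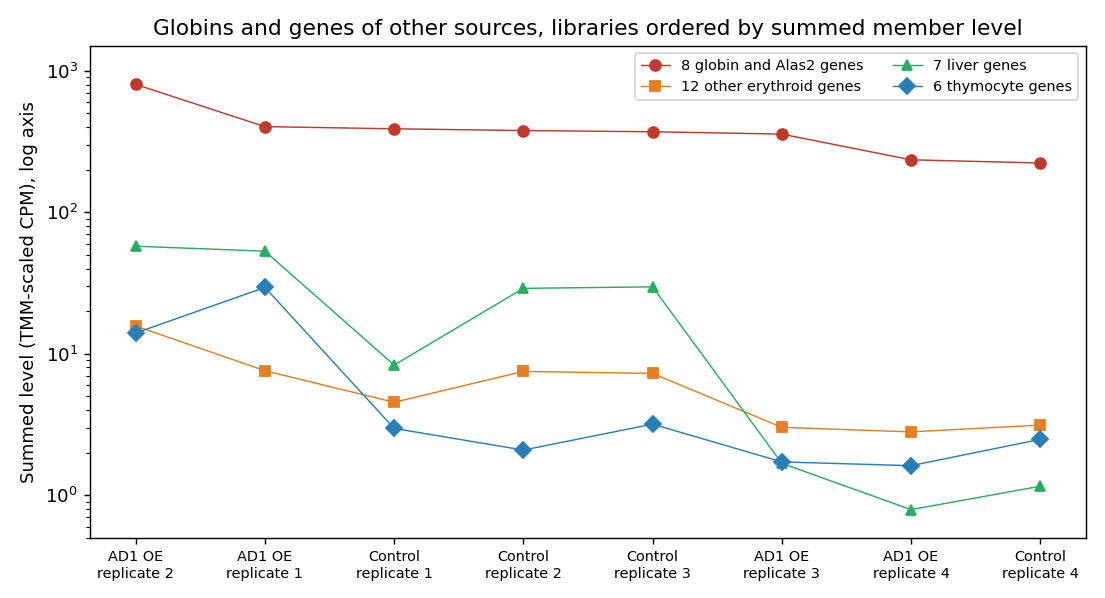
Summed TMM-scaled CPM (log axis) of the 8 globin and Alas2 genes, 12 other red cell genes, 7 liver genes and 6 thymocyte genes in the 8 libraries, ordered from the highest to the lowest summed globin level; lines only join the points of a gene group. Globin falls from 802 to 223 CPM, while the liver genes fall from 57.6 CPM to 1.68 CPM or less in AD1 OE replicates 3 and 4 and Control replicate 4.

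The genes outside the members whose log2 CPM followed the summed level most closely over the 8 libraries were Rsl1d1 (Pearson's r 0.96), Tek (0.94), the endothelial angiopoietin receptor, Shmt1 (0.93), a serine hydroxymethyltransferase, Tmed7 (0.93) and Itga6 (0.93), an integrin chain. They changed little in size. Rsl1d1 ran from 64.8 to 74.0 CPM and Tek from 17.7 to 22.3 CPM, with SDs of log2 CPM of 0.06 and 0.11, beside 0.56 to 0.60 for the 5 tested members. These were the highest of 15517 correlations over 8 libraries and carry no test.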

How the data were processed

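RNA from dorsal root ganglia was sequenced as stranded poly(A) libraries. Per the labels and the study's methods, the authors aligned reads to GRCm39 with STAR 2.7.8a and counted them per gene with featureCounts 2.0.1; they deposited raw counts, 1 file per library, neither normalised nor filtered. Strand setting and treatment of multi-mapping reads are not given in the sources used here. IDs were joined to symbols through GENCODE M21 (52081 of 55414 IDs). Genes were filtered with filterByExpr (17721 kept), scaled by TMM and compared with edgeR 4.0.16 in R 4.3.3 (quasi-likelihood test, genotype only, Benjamini-Hochberg adjustment across tested genes), and a call needed an adjusted p below 0.005 with a log2 fold change beyond 0.25 either way, the study's own limits. Summed levels and ratios were compared by exact permutation over libraries, with all 8 libraries in the fit. Alternatives were DESeq2 1.42.0, limma-voom (limma 3.58.1), other scalings, filters and thresholds, robust empirical Bayes, a replicate block, sex, and leaving out each library. Log2 CPM used a prior count of 2.

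The 8 genes and the gene lists were chosen with earlier results of these data known. Named were all 8 genes, called genes of the lists and up to 4 of the most abundant genes of a list, the 5 genes most like the summed level, and Dach1 and Avil; other genes were chosen after their values were seen. Replicate numbers were not taken as pairs in the main fit. Ahsp, of the red cell list, was not analysed here. Totals per library limit the precision of low counts, with 3 counts taken as the floor.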

Additional observations from a re-analysis of the deposited data

Results flagged for a closer look

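In each group of 4, the highest or the lowest library was compared with the nearest of the others by Dixon's test. Of 34 combinations of a quantity and a group, 6 stood out, where chance alone flags about 1 in 20. Control replicate 4 lay far below the other 3 Controls for Hba-a1 (33.7 CPM), Hbb-bt (34.0 CPM), Alas2 (8.83 CPM) and the sum of the 8 genes (223 CPM), which are not independent of each other. AD1 OE replicate 2 had an embryonic share of beta-globin counts of 0% (0 counts) where the other 3 AD1 OE libraries lay at 0.0613 to 0.0634%. Control replicate 3 had an Hbb-bt share of adult beta-globin counts of 24.4%, the other 3 Controls 21.1 to 21.6%. The high level of AD1 OE replicate 2 itself did not pass the test, since AD1 OE replicate 4 was low.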

How the results depend on the processing

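No member was called under any alternative. The further red cell and globin genes had 0 calls with all 8 libraries and 1 call with DESeq2 (Car1), 1 without the expression filter (Car1) and 1 at an adjusted p under 0.05 with any fold change (Ngb, 0.47); Car1 is below the filter of the other fits. Leaving out 1 library gave 0 calls for both counts. With a threshold of 1 on the log2 fold change Avil (-0.94) was no longer called, by construction.

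Over the fits without 1 library, log2 fold changes ran from -0.0577 to 0.59 for Hbb-bs, -0.0409 to 0.59 for Hbb-bt, 0.03 to 0.66 for Hba-a1, 0.09 to 0.70 for Hba-a2, -0.0317 to 0.66 for Alas2 and -0.0656 to 0.92 for Slc4a1. The lowest value came in each without AD1 OE replicate 2, and there Hbb-bs, Hbb-bt, Alas2 and Slc4a1 changed direction. The log2 difference of the summed level ran from -0.0370 (without AD1 OE replicate 2) to 0.56. The differences ran from -0.0371 to -0.0123 percentage points for the embryonic beta share, -0.0688 to -0.0208 for the embryonic alpha share, 0.320 to 1.30 for the Hba-a2 share and -0.283 to 0.789 for the Hbb-bt share. For the last, the direction changed without AD1 OE replicate 1 or Control replicate 1, 2 or 4, and the test was passed without Control replicate 3. The log2 alpha to beta ratio ran from 0.0191 to 0.11 and that of Alas2 to globin from -0.0614 to 0.0273, changing direction without AD1 OE replicates 3 or 4 or Control replicate 4. Without the 2 libraries farthest from the median, r changed direction for platelet genes (0.0584), endothelial genes (0.61) and library size (0.21). The cause was not tested.

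Deviations of same-numbered libraries from their group means correlated at r of -0.01, -0.05, -0.04 and 0.31. The last, of the replicates 4, was the highest for any AD1 OE and Control library, so whether the numbers pair libraries is not settled. A replicate block left 0 members called, with a log2 fold change of 0.27 for Hbb-bs and 0.38 for Hba-a2, and a sign-flip test of the summed level gave p = 0.375 (exact, difference 0.29, smallest possible 0.125). No other call changed. The embryonic genes are limited by depth, with at most 8 counts in a library.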
